A study of Homo sapiens with 12 samples.

Results

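The NDRG family of MDA-MB-231 cells comprises 4 genes, NDRG1, NDRG2, NDRG3 and NDRG4, taken by symbol from a deposited table of 24641 gene symbols. All 4 had enough reads to be among the 15648 genes tested. MDA-MB-231 is an established human line from a triple-negative breast cancer, with a mesenchymal character. Cells carrying a short hairpin RNA against RIPOR3 (shRIPOR3) or a control hairpin (shControl, labelled wild type) were kept in hypoxia (1% O2 for 24 hours) or in normoxia. Shared by all groups were 5% CO2, a temperature of 37 °C and DMEM medium, to which 10% serum and 1% penicillin-streptomycin were added. Each of the 4 groups, hypoxia shRIPOR3, hypoxia shControl, normoxia shRIPOR3 and normoxia shControl, had 3 libraries of stranded messenger RNA. The study asked what RIPOR3 does in breast tumour growth and spread, and its title links RIPOR3 messenger RNA to hypoxia and to METTL3. The labels do not say whether a line is a pool or 1 clone, so the hairpin and the line that carries it cannot be told apart. Whether replicates are separate cultures is also not stated, and the p-values then cover just the scatter among these libraries, which may be technical.

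NDRG proteins are cytosolic members of the alpha/beta-hydrolase fold family that lack the residues for hydrolase activity, and the family is named for the repression of its founding gene by N-myc. NDRG1 is a widely used marker of hypoxia, a direct target of hypoxia-inducible factors (HIF), and has been described as a metastasis suppressor in several carcinomas. It is phosphorylated by the kinases SGK1 and GSK3, and its loss causes a demyelinating neuropathy. NDRG2 is abundant in astrocytes and muscle and is often silenced in tumours. NDRG3 protein is a substrate of the oxygen sensor EGLN1, and in low oxygen it has been reported to bind lactate and to act through RAF and ERK. NDRG4 is expressed mainly in heart and brain.

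Promoter sequences were matched for 2 of the 4 members in RefSeq (GRCh38.p14), with 5 annotated starts for NDRG2 and 4 for NDRG4. The core of the HIF response element, ACGTG or GCGTG on either strand, was searched in the 250 bases before each start. It was present in 1 of the 4 NDRG4 windows, with 4 matches, and in 3 of the 5 NDRG2 windows, with 1 match each. Of all 35116 windows of the same kind 43.2% held it. Shown here are 3 windows, for NDRG4, which rose in hypoxia, and for NDRG2, which did not, with the motif in capitals. They are NDRG4 at chr16:58463465-58463714 (plus strand), NDRG4 at chr16:58464860-58465109 (plus strand) and NDRG2 at chr14:21025106-21025355 (minus strand).
NDRG4 start with 4 matches: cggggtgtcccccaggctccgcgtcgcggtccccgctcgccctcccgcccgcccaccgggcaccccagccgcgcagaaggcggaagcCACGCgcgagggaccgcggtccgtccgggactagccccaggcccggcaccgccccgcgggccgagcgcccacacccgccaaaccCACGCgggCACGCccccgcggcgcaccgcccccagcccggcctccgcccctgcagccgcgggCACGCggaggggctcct
NDRG4 start with no match: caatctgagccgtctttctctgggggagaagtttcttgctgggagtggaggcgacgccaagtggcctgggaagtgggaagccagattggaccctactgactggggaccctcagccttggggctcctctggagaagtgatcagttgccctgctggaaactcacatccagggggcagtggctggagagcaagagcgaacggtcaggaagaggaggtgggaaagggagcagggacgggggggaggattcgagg
NDRG2 start with 1 match: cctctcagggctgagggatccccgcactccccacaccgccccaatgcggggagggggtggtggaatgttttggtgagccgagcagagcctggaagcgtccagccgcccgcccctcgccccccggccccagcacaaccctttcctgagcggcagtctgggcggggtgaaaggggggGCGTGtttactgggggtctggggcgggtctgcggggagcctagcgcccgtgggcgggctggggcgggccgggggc
The 4 matches of NDRG4 begin 163, 79, 71 and 17 bases before the start, all read as CACGC on the printed strand. The NDRG2 match begins 75 bases before its start. An overlapping NDRG2 window, chr14:21025062-21025311, holds the same site 119 bases before its own start, so that site is counted in both. The first window holds 82.8% G and C, the window without a match 60.8% and the NDRG2 window 73.6%. Counts per gene do not tell which start was used, so a match is a description of these letters alone.

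Totals ran from 31781324 to 52526813 counts per library in hypoxia and from 14750734 to 30032858 in normoxia, so depth differed with oxygen. RIPOR3 counts were 9, 3 and 11 in hypoxia shRIPOR3, against 33, 18 and 30 in hypoxia shControl. They were 0, 0 and 1 in normoxia shRIPOR3, against 7, 3 and 7 in normoxia shControl. RIPOR3 was lower in shRIPOR3 at both oxygen levels (edgeR adjusted p = 1.69e-06 in hypoxia and 0.0013 in normoxia), from few counts. All 6 markers of the line were present in every group, with group means from 45.5 to 6058 CPM (counts relative to the library total, scaled by the trimmed mean of M-values, TMM). The 6 genes chosen as scarce in the line summed to between 10.0 and 13.2 CPM per library, with single group means up to 7.26 CPM. Of 7 markers of blood and endothelium 5 were in the table, and their sum lay between 3.31 and 4.42 CPM in hypoxia shRIPOR3, 13.0 and 13.8 CPM in hypoxia shControl, 2.38 and 3.08 CPM in normoxia shRIPOR3, and 7.28 and 8.37 CPM in normoxia shControl. Most of that sum came from PECAM1 and CDH5, while the T cell marker CD3E was at 0 in all libraries of hypoxia shRIPOR3 and of normoxia shControl. The part of these transcripts in the results was not tested. The 3 brain and muscle markers in the table, GFAP, RBFOX3 and MYH6, summed to at most 1.09 CPM in any library.

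On GRCh38 (GENCODE 29), NDRG1 lies on chromosome 8 from 133237171 to 133302022, NDRG2 on chromosome 14 from 21016763 to 21070872 and NDRG3 on chromosome 20 from 36651766 to 36746078, all on the minus strand. NDRG4 lies on the plus strand of chromosome 16 from 58462846 to 58513628. No stretch of 50 bases in the annotated transcripts of one member occurred in those of another, so reads of that length would not be exchanged within the family. NDRG1 and NDRG4 shared no such stretch with any other annotated gene, whereas NDRG3 shared 2.43% of its stretches and NDRG2 3%. For NDRG2 most were shared with TPPP2, a gene on the opposite strand with 236 exon bases in common, so counts made without strand could mix both.

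The family was dominated by NDRG1 and NDRG3 in these cells. NDRG1 supplied 86.5% ± 0.266 of the family's counts in hypoxia shRIPOR3 (mean ± SD, n = 3 here and below), 97.0% ± 0.0472 in hypoxia shControl, 43.7% ± 1.29 in normoxia shRIPOR3 and 66.0% ± 0.797 in normoxia shControl. NDRG3 made up nearly all of the rest, with 54.7% ± 1.27 in normoxia shRIPOR3 and 2.79% ± 0.0203 in hypoxia shControl. Within a hypoxia shControl library NDRG1 ranked between place 34 and place 37 of all genes by count. In normoxia shRIPOR3 it ranked between 2834 and 2907. Levels between genes were compared as CPM per kilobase of merged exons. On that scale NDRG1 stood at 49.2 ± 1.14 in hypoxia shRIPOR3 and 201 ± 3.13 in hypoxia shControl, above NDRG3 at 21.98 ± 0.531 and 17.4 ± 0.407. In normoxia shRIPOR3 NDRG3 at 27.6 ± 1.14 was above NDRG1 at 7.29 ± 0.104. The order in normoxia shControl depended on the length used. With merged exons NDRG1 was at 17.0 ± 0.509 and NDRG3 at 25.2 ± 0.368, whereas with the longest transcript NDRG1 was at 41.9 and NDRG3 at 27.5. NDRG4 and NDRG2 were far below in every group, NDRG4 between 0.215 ± 0.0280 and 0.420 ± 0.0538 and NDRG2 between 0.0578 ± 0.00601 and 0.130 ± 0.00877, and NDRG4 was the higher of this pair in all 12 libraries. These are bulk levels, in which a smaller share of expressing cells and less RNA per cell cannot be told apart.

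**Figure D1:**
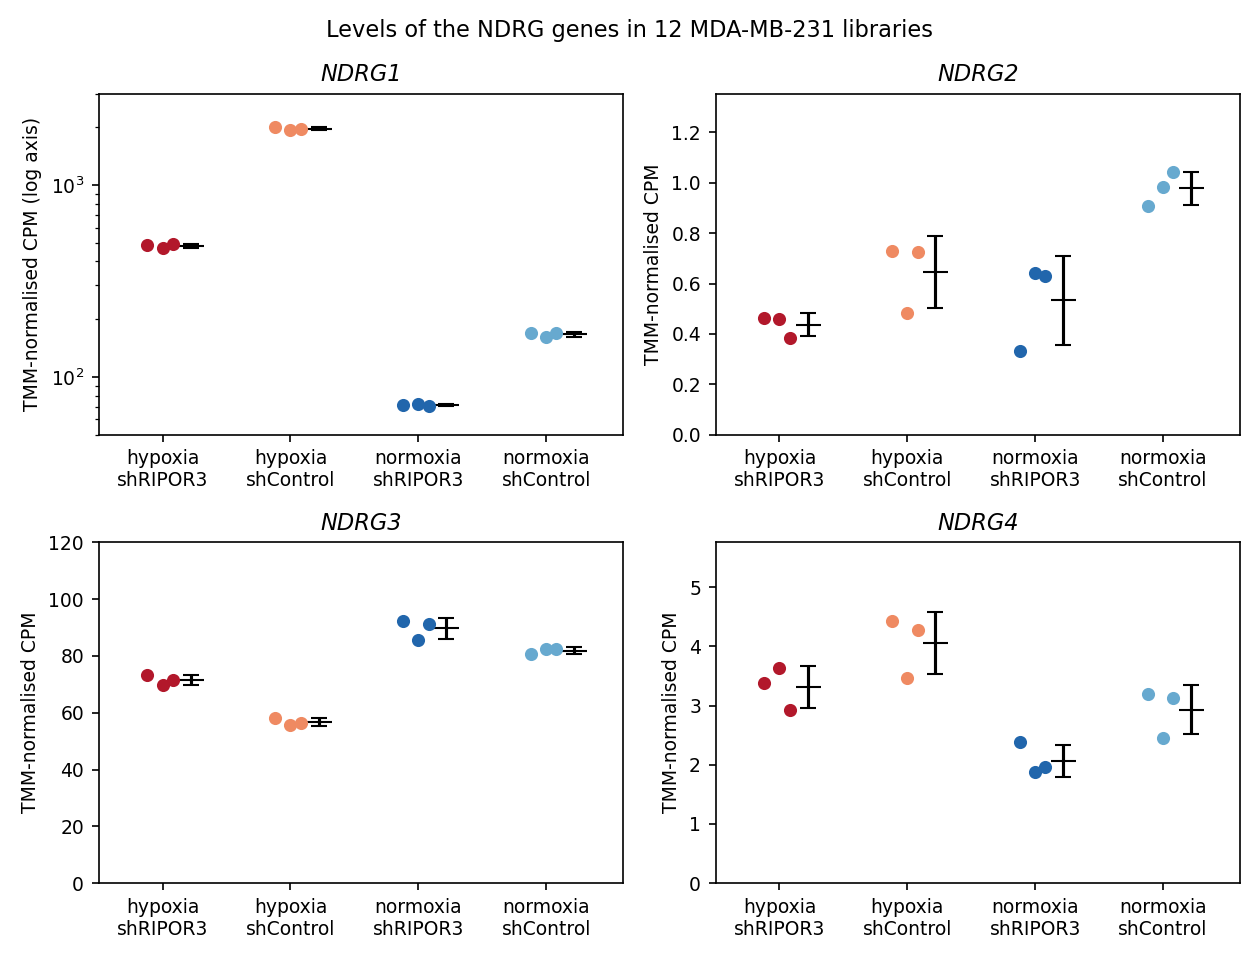
TMM-normalised CPM of the 4 NDRG genes (vertical axes, logarithmic for NDRG1 and linear from 0 for the others) in the 4 groups, with points for the 3 libraries of a group and bars for mean ± SD. NDRG1 spans from 70.5 CPM in normoxia shRIPOR3 to 2005 CPM in hypoxia shControl with no overlap between groups, while NDRG2 stays at or below 1.04 CPM.

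In hypoxia the family split, with NDRG1 far higher, NDRG4 slightly higher and NDRG3 lower in both lines. NDRG1 reached 2005, 1945 and 1963 CPM in hypoxia shControl, against 170.0, 161 and 169 CPM in normoxia shControl. Every hypoxic library was above every normoxic one, and the spread within a group was small beside the gap. The fitted log2 fold change of NDRG1 was 3.56 ± 0.0402 (± SE, here and for later log2 values), an 11.8-fold increase with an adjusted p of 9.7e-27 in edgeR's quasi-likelihood test. It was the 12th largest increase of the 15648 genes tested. In the shRIPOR3 line NDRG1 had 486, 471 and 493 CPM in hypoxia, against 71.7, 72.5 and 70.5 CPM in normoxia. Again the groups did not overlap, and the log2 fold change was 2.75 ± 0.0407, or 6.75-fold, the 9th largest increase of all genes in that line (edgeR adjusted p = 5.03e-24).

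NDRG4 was scarce and moved in the same direction as NDRG1, by far less. In shControl its libraries had 4.43, 3.46 and 4.27 CPM in hypoxia, against 3.20, 2.46 and 3.13 CPM in normoxia. The groups did not overlap, although the lowest hypoxic library was close to the highest normoxic one. The log2 fold change of NDRG4 was 0.44 ± 0.134 in shControl (edgeR adjusted p = 0.00607). In shRIPOR3 NDRG4 had 3.38, 3.63 and 2.93 CPM in hypoxia, against 2.38, 1.87 and 1.96 CPM in normoxia, with no overlap. Its log2 fold change there was 0.69 ± 0.148 (edgeR adjusted p = 0.000325).

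NDRG3, the member tied to the lactate response at the protein level, fell at the RNA level. It had 58.1, 55.5 and 56.3 CPM in hypoxia shControl, against 80.5, 82.6 and 82.6 CPM in normoxia shControl, a log2 fold change of -0.53 ± 0.0398 (edgeR adjusted p = 2.8e-11). In shRIPOR3 it had 73.1, 69.7 and 71.4 CPM in hypoxia, against 92.4, 85.4 and 91.1 CPM in normoxia, a log2 fold change of -0.33 ± 0.0385 (edgeR adjusted p = 1.07e-07). In both lines all hypoxic libraries lay below all normoxic ones. Scaled by library totals, the change in shRIPOR3 was -0.20 and was still called.

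NDRG2 was at the edge of detection. Its counts were 30, 16 and 26 in hypoxia shControl (0.731, 0.482 and 0.725 CPM), against 23, 14 and 29 in normoxia shControl (0.910, 0.982 and 1.04 CPM). Summed over libraries, the level was 0.654 CPM (95% exact Poisson interval 0.512 to 0.824) in hypoxia and 0.980 CPM (0.758 to 1.25) in normoxia, so the intervals overlapped, and they cover counting error only. The log2 fold change of -0.58 ± 0.245 passed the edgeR threshold narrowly (adjusted p = 0.0414). The call was lost without normoxia shControl replicate 1 (adjusted p = 0.0582), 2 (0.0659) or 3 (0.143) and without hypoxia shControl replicate 2 (0.16), and over 21 alternatives the adjusted p ran from 0.0359 to 0.172. In shRIPOR3 NDRG2 had 25, 17 and 21 counts in hypoxia (0.464, 0.461 and 0.384 CPM), against 5, 14 and 18 in normoxia (0.330, 0.640 and 0.630 CPM), and the groups overlapped. Its log2 fold change there was -0.37, with a 95% interval from -0.97 to 0.23 (edgeR adjusted p = 0.295), so a change of this size was not detectable at this depth. Leaving out 1 library at a time gave -0.55 to -0.24, and thinning to the smallest library gave -0.88, none of them called.

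Counted over the family, all 4 members were called in shControl, beside 64.8% of all genes, and 3 in shRIPOR3, beside 55.6%. In shControl 2 rose in hypoxia, where 32.4% of all genes were called higher, and 2 fell, where 32.4% were called lower. In shRIPOR3 2 rose (25.2% of all genes) and 1 fell (30.4%). Groups did not overlap for 4 of 4 members in shControl, beside 67.2% of all genes, and for 3 of 4 in shRIPOR3, beside 61.2%. These shares are high over the whole table, so the counts are no result about the family as such. Among the members only the NDRG1 change lay outside the range of most genes. The central 90% of all genes, between the percentiles 5 and 95, ran from -0.67 to 1.24 in shControl and from -0.55 to 0.90 in shRIPOR3, and NDRG2, NDRG3 and NDRG4 lay within it in both lines. Scaling by library totals moved the all-gene median by 0.110 (shControl) and 0.123 (shRIPOR3) on the log2 scale, and no member changed direction.

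**Figure D2:**
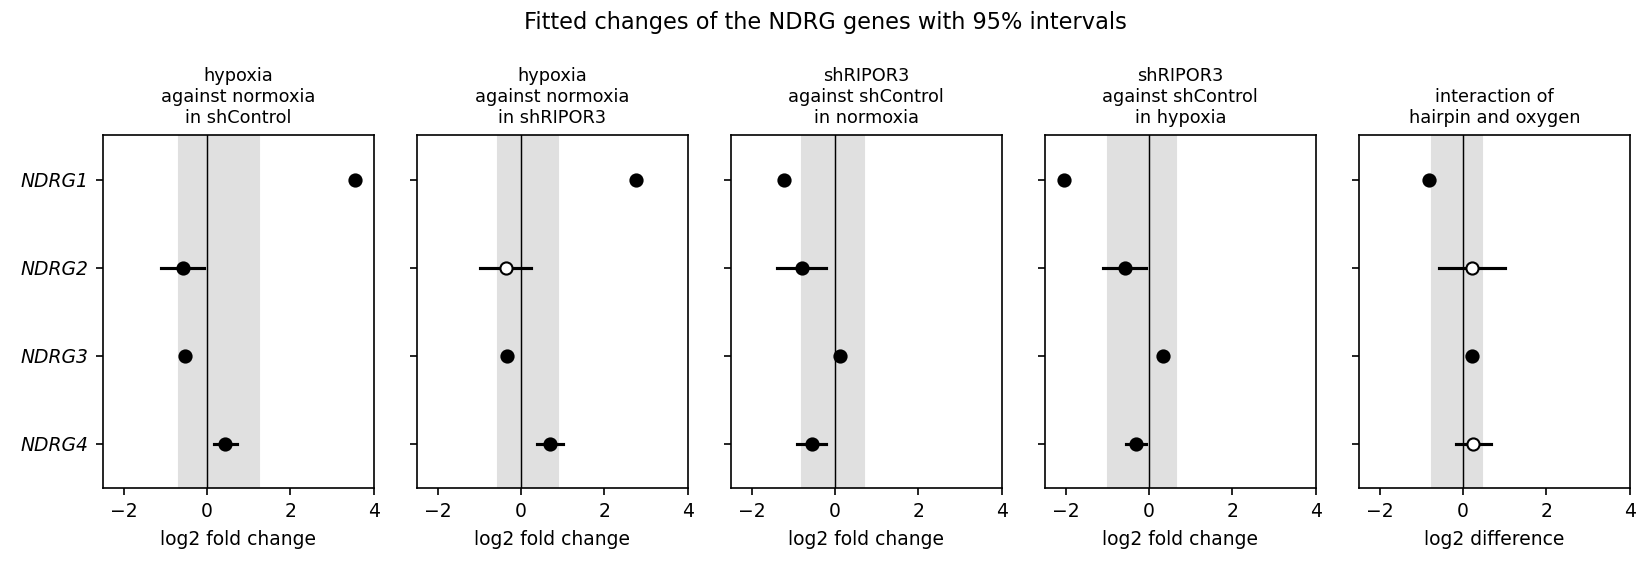
Fitted log2 fold changes (horizontal axes) of the 4 NDRG genes in 4 comparisons and the log2 difference for the interaction, with 95% intervals as lines, filled points for an adjusted p under 0.05 and open points for others. Grey bands hold the central 90% of all 15648 genes tested; NDRG1 lies outside the band in all 5 panels and the other members lie inside it, apart from NDRG2 just below it in normoxia for shRIPOR3 against shControl (-0.80).

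In shRIPOR3 cells NDRG1, NDRG2 and NDRG4 were lower and NDRG3 was higher than in shControl cells, in normoxia and in hypoxia. In normoxia the NDRG1 values given above for shRIPOR3 lay far below those of shControl, at 71.6 ± 1.02 CPM against 167 ± 5.00 CPM. Its log2 fold change was -1.22 ± 0.0409 (edgeR adjusted p = 8.69e-17), place 293 from the lowest among all genes. In hypoxia the difference was larger, with 483 ± 11.2 CPM in shRIPOR3 against 1971 ± 30.7 CPM in shControl. The log2 fold change of NDRG1 was -2.03 ± 0.0369 (edgeR adjusted p = 3.16e-22), place 96 from the lowest, and no library of one hairpin reached the range of the other at either oxygen level.

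NDRG3 was higher in shRIPOR3. It averaged 71.4 ± 1.73 CPM in hypoxia shRIPOR3 against 56.7 ± 1.32 CPM in hypoxia shControl, a log2 fold change of 0.33 ± 0.0381 (edgeR adjusted p = 5.07e-08), and the groups did not overlap. In normoxia it averaged 89.6 ± 3.70 CPM in shRIPOR3 and 81.9 ± 1.20 CPM in shControl, a log2 fold change of 0.13 ± 0.0401 (edgeR adjusted p = 0.01). That small difference lost its call without normoxia shRIPOR3 replicate 3 (adjusted p = 0.0516) and when only these 2 groups were fitted (0.0663), and its adjusted p ran from 0.00419 to 0.0663 over 22 alternatives.

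NDRG4 was lower by modest amounts. In normoxia it averaged 2.07 ± 0.270 CPM in shRIPOR3 and 2.93 ± 0.412 CPM in shControl, without overlap, a log2 fold change of -0.56 ± 0.168 (edgeR adjusted p = 0.00837). In hypoxia it averaged 3.31 ± 0.357 CPM in shRIPOR3 and 4.05 ± 0.519 CPM in shControl. There the ranges overlapped, since the highest shRIPOR3 library had 3.63 CPM and the lowest shControl library 3.46 CPM, and the log2 fold change was -0.31 ± 0.114 (edgeR adjusted p = 0.0209). The hypoxic call was lost without hypoxia shControl replicate 1 (adjusted p = 0.126) or 3 (0.0821), without hypoxia shRIPOR3 replicate 3 (0.132), in DESeq2 (0.087) and after thinning to the smallest library (0.064).

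NDRG2 was again limited by its counts. In normoxia the 3 shRIPOR3 libraries, 0.533 ± 0.176 CPM, lay below the 3 shControl libraries, 0.978 ± 0.0662 CPM, a log2 fold change of -0.80 ± 0.283 (edgeR adjusted p = 0.0239). Without normoxia shControl replicate 3 the adjusted p was 0.0894, and without normoxia shRIPOR3 replicate 1, the library with 5 counts, it was 0.0915. In hypoxia NDRG2 averaged 0.436 ± 0.0454 CPM in shRIPOR3 and 0.646 ± 0.142 CPM in shControl, a log2 fold change of -0.59 ± 0.246 (edgeR adjusted p = 0.0425). All shRIPOR3 libraries, at most 0.464 CPM, were below the lowest shControl library at 0.482 CPM. The call was lost without hypoxia shControl replicate 1 (adjusted p = 0.163) or 3 (0.141), without hypoxia shRIPOR3 replicate 1 (0.0633), 2 (0.0608) or 3 (0.145), and without normoxia shControl replicate 1 (0.0507) or 3 (0.0516). After thinning all libraries to the smallest, the log2 fold change was -1.08.

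Over the family all 4 members were called at both oxygen levels, beside 45.7% of all genes in normoxia and 61.9% in hypoxia. Of the 4 members 3 were lower in shRIPOR3 in normoxia, where 20.6% of all genes were called lower, and 1 was higher, where 25.1% were called higher. In hypoxia 3 were lower (31.2% of all genes) and 1 higher (30.7%). Groups did not overlap for 4 members in normoxia (51.8% of all genes) and for 3 in hypoxia (66% of all genes). The comparisons share libraries pairwise, so their directions are not independent of each other.

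The response to hypoxia differed between the lines for NDRG1 and NDRG3. The interaction, the log2 response to hypoxia in shRIPOR3 minus that in shControl, was -0.81 ± 0.0542 for NDRG1 (edgeR adjusted p = 2e-10), which is a weaker rise in shRIPOR3. For NDRG3 it was 0.20 ± 0.0553 (edgeR adjusted p = 0.00906), a weaker fall. Of all genes 12.3% had a called negative and 10.9% a called positive interaction, against 1 and 1 of the 4 members. For NDRG4 the 2 responses could not be told apart, with an interaction of 0.25 and a 95% interval from -0.17 to 0.67 (edgeR adjusted p = 0.42). The same held for NDRG2, at 0.21 with an interval from -0.57 to 1.00 (edgeR adjusted p = 0.759), and from 0.04 to 0.35 with 1 library left out at a time.

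Hypoxic shRIPOR3 cells were also set against normoxic shControl cells, which differ in both factors. NDRG1 was still 2.89-fold higher in hypoxia shRIPOR3 (log2 1.53 ± 0.0378, edgeR adjusted p = 7.88e-20). NDRG2 was lower (-1.17 ± 0.253, edgeR adjusted p = 0.000306), with 0.384 to 0.464 CPM against 0.910 to 1.04 CPM. NDRG3 was slightly lower (-0.20 ± 0.0387, edgeR adjusted p = 0.00011), a call lost when scaled by library totals (0.0704). NDRG4 differed by 0.13 with a 95% interval from -0.15 to 0.41 (edgeR adjusted p = 0.414). Here 3 of 4 members were called, beside 62.2% of all genes, with 1 higher, beside 30.4% of all genes, and 2 lower, beside 31.8%. Groups did not overlap for 3 of 4 members, beside 65.8% of all genes.

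Ratios of counts within a library do not depend on library scaling, and showed how the balance of the family moved against NDRG3. The log2 ratio of NDRG1 to NDRG3 was 2.73, 2.76 and 2.79 in hypoxia shRIPOR3, 5.11, 5.13 and 5.12 in hypoxia shControl, -0.36, -0.24 and -0.37 in normoxia shRIPOR3, and 1.08, 0.96 and 1.04 in normoxia shControl. NDRG1 thus had 34.8 times the counts of NDRG3 in hypoxia shControl, and fewer counts than NDRG3 in normoxia shRIPOR3, where the ratio was 0.799. This log2 ratio was higher in hypoxia by 4.09 in shControl and by 3.08 in shRIPOR3. In shRIPOR3 it differed from shControl by -2.36 in hypoxia and by -1.35 in normoxia. Averaged over the lines, the log2 ratio was 3.59 higher in hypoxia, and averaged over oxygen levels, it differed by -1.86 in shRIPOR3 from shControl. Each average had p = 0.005 in a two-sided exact permutation test within strata, the smallest its 400 arrangements allow. The permutation p was 0.006 for each after adjustment over 6 such tests.

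The ratio of NDRG4 to NDRG3 moved in the same directions on a smaller scale. Its log2 value was higher in hypoxia by 0.995 in shControl and 0.996 in shRIPOR3, and differed by -0.62 in shRIPOR3 from shControl at either oxygen level (exact permutation p = 0.005 and adjusted p = 0.006 for both factors). For NDRG2 to NDRG3 the log2 ratio differed by -0.95 in shRIPOR3 from shControl (exact permutation p = 0.005, adjusted p = 0.006). Between hypoxia and normoxia no difference was detectable there, with -0.02 on average (exact permutation p = 0.905, also after adjustment).

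**Figure D3:**
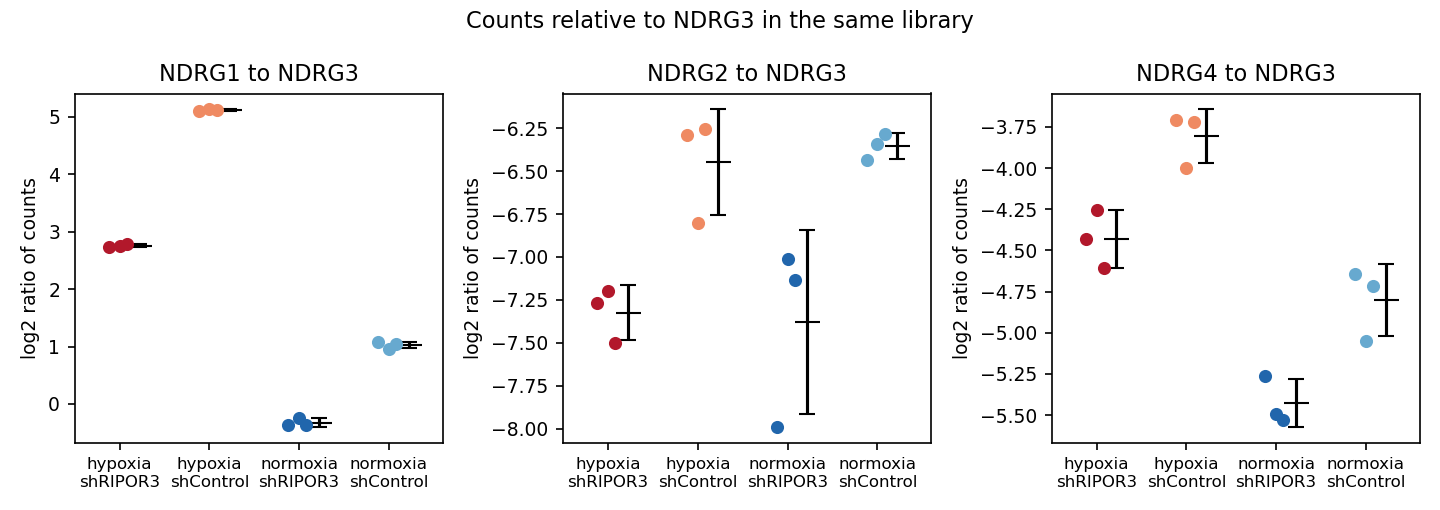
Log2 ratio of the counts of NDRG1, NDRG2 and NDRG4 to those of NDRG3 in the same library (vertical axes, each panel with its own range), with points for the 3 libraries of each group and bars for mean ± SD. The NDRG1 ratio separates all 4 groups, from a mean of -0.32 in normoxia shRIPOR3 to 5.12 in hypoxia shControl.

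The list counts below stand beside the shares of all genes called. In hypoxia 32.4% of all genes were higher and 32.4% lower in shControl, and 25.2% were higher and 30.4% lower in shRIPOR3. Between hairpins 25.1% were higher and 20.6% lower in normoxia, and 30.7% were higher and 31.2% lower in hypoxia. The transcription factors described for NDRG genes differed in direction. In hypoxia 7 of 10 tested rose and 2 fell in shControl, and 6 rose and 1 fell in shRIPOR3. The median log2 fold changes were 0.16 and 0.24, beside 0.02 and -0.01 for all genes. HIF1A, the main oxygen-regulated HIF subunit, fell by 1.47 on the log2 scale in shControl (-1.47 ± 0.0388), whereas EPAS1, the gene of the HIF-2 alpha subunit, rose by 1.14 ± 0.069. EGR1, an immediate-early factor, rose by 1.00 ± 0.117 and MYC by 0.46 ± 0.0395 in shControl. Between hairpins ARNT, the constitutive HIF partner, was lower in shRIPOR3 in normoxia (-0.49 ± 0.0477) and in hypoxia (-0.46 ± 0.0416). MYC, whose family has been described as repressing NDRG1 and NDRG2, was higher by 0.79 ± 0.0403 in normoxia and by 0.59 ± 0.0357 in hypoxia. The part of MYC or of the other factors in the NDRG changes was not tested. EPAS1 was lower in shRIPOR3 by 1.12 in hypoxia (-1.12 ± 0.0599), where HIF1A had a log2 fold change of -0.07 ± 0.0389 (edgeR adjusted p = 0.109). In normoxia HIF1A was lower in shRIPOR3, at 103 ± 3.55 CPM against 180 ± 0.294 CPM in shControl, without overlap. In normoxia 3 of these 10 genes were lower and 2 higher, and in hypoxia 3 were lower and 4 higher, with medians of -0.03 and -0.05. RNA levels do not report the amount or activity of the HIF subunits or of the other factors as proteins.

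Among HIF targets NDRG1 was one of the most responsive. Of 22 listed targets 21 rose and 1 fell in hypoxia in each line, with median log2 fold changes of 1.70 in shControl and 1.16 in shRIPOR3. In shControl only CA9, the cell-surface carbonic anhydrase (6.82 ± 0.185), and ANGPTL4, a lipoprotein lipase inhibitor (3.94 ± 0.151), had larger values than NDRG1, and in shRIPOR3 only CA9 (5.46 ± 0.409). The CA9 values rest on very few normoxic counts, 1, 1 and 0 in shRIPOR3 and 4, 2 and 3 in shControl, and are no bounds. Under scaling by library totals 0 of the 22 fell in shControl. Between hairpins in hypoxia, 20 of the 22 were lower in shRIPOR3 and 2 higher, with a median of -0.74 beside 0.00 for all genes. CA9 (-3.36 ± 0.0955), ANGPTL4 (-2.67 ± 0.103) and the clock repressor BHLHE40 (-2.06 ± 0.0388) lay below NDRG1, the last by less than its SE. In normoxia 10 were lower and 5 higher. NDRG1 shared its direction there with BHLHE40 (-1.52 ± 0.066) and the collagen hydroxylase PLOD2 (-0.78 ± 0.0428), while the peptide hormone gene ADM was higher (1.20 ± 0.048). The interaction was called negative for 20 of the 22, beside 12.3% of all genes, and was not called for 2.

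**Figure D4:**
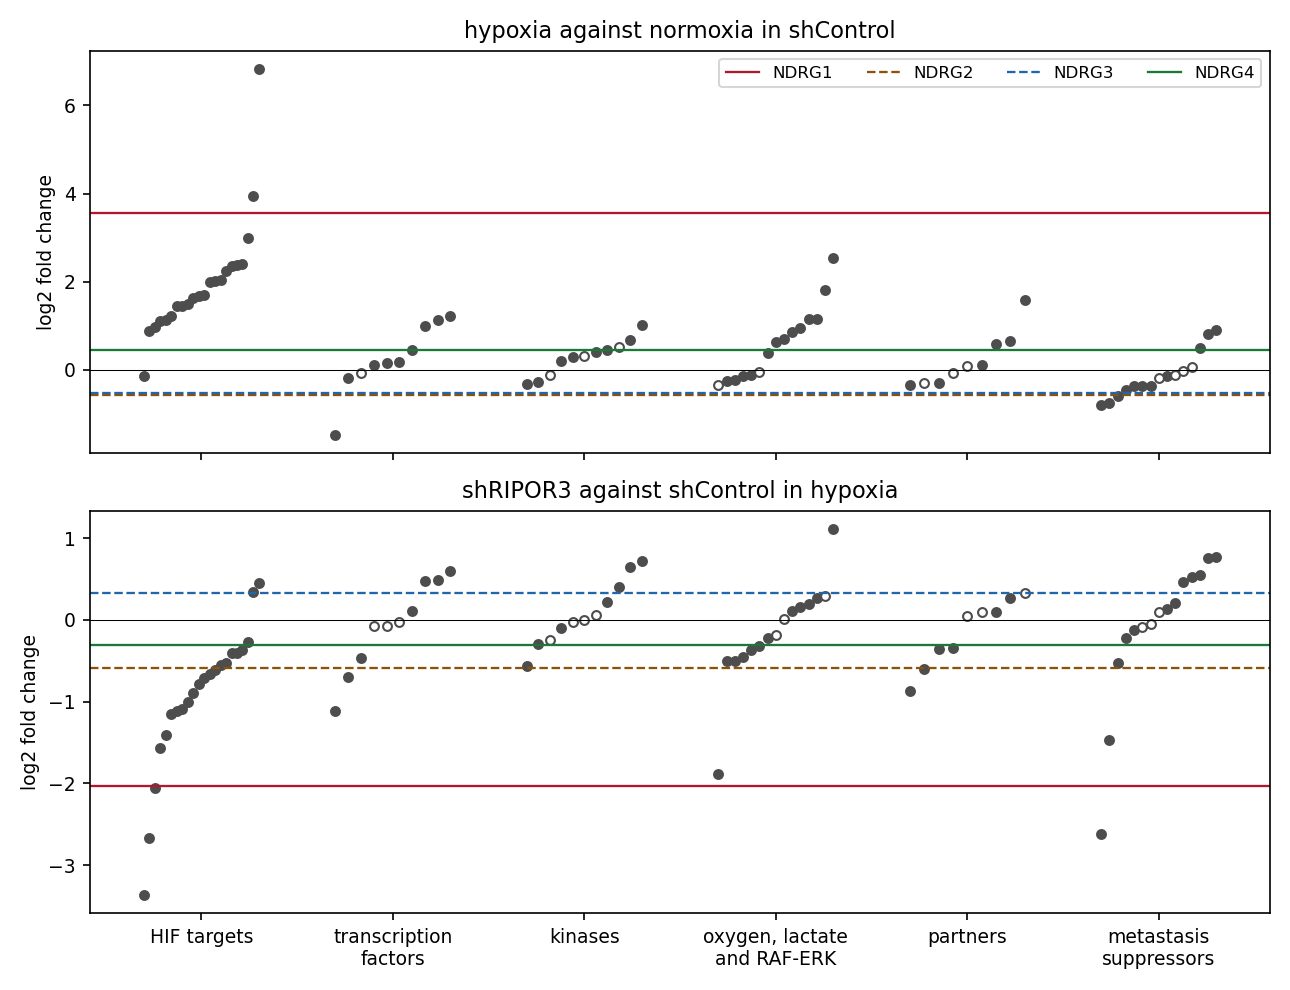
Log2 fold changes (vertical axes) of the tested genes in 6 lists, 1 point per gene ordered by value within a list, filled where the adjusted p was under 0.05; horizontal lines mark the 4 NDRG genes. For hypoxia against normoxia in shControl the NDRG1 line at 3.56 lies above all but 2 points, both HIF targets; for shRIPOR3 against shControl in hypoxia its line at -2.03 lies above 3 HIF targets and 1 metastasis suppressor gene.

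Of 11 tested kinases that phosphorylate NDRG proteins, with their activators, 6 rose and 2 fell in hypoxia in shControl (median log2 fold change 0.32), and 7 rose and 1 fell in shRIPOR3 (median 0.13). PDPK1, which activates SGK kinases, rose by 1.01 ± 0.0738 and MTOR, the catalytic subunit of both mTOR complexes, by 0.68 ± 0.0434 in shControl. SGK1, the main NDRG1 kinase, was higher in shRIPOR3, at 33.7 ± 0.942 CPM against 20.6 ± 0.503 CPM in hypoxia (log2 0.72 ± 0.0464). In normoxia SGK1 had 31.1 ± 1.41 CPM in shRIPOR3 and 17.7 ± 0.713 CPM in shControl (log2 0.80 ± 0.056). RICTOR, the defining subunit of mTOR complex 2, was lower in shRIPOR3 in hypoxia (-0.56 ± 0.048) and in normoxia (-0.24 ± 0.0574). In shRIPOR3 4 of these 11 genes were higher and 3 lower in hypoxia, and 3 were higher and 1 lower in normoxia. The 7 that rose with hypoxia in shRIPOR3 became 3 without normoxia shRIPOR3 replicate 2 or hypoxia shRIPOR3 replicate 3 and 4 without hypoxia shRIPOR3 replicate 1, and the 1 lower in normoxia became 2 without normoxia shRIPOR3 replicate 2. RNA levels do not report kinase activity or the phosphorylation of NDRG1.

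Of 15 genes of the oxygen, lactate and RAF-ERK route described for NDRG3 protein, 9 rose and 4 fell with hypoxia in shControl (median 0.64; 32.4% of all genes rose and 32.4% fell). In shRIPOR3 6 rose and 4 fell (median 0.14; 25.2% and 30.4% of all genes). EGLN1, the prolyl hydroxylase reported to act on NDRG3, rose by 1.82 ± 0.0614 in shControl and 1.38 ± 0.0627 in shRIPOR3. The lactate dehydrogenase gene LDHA rose by 0.85 ± 0.0397 and 0.62 ± 0.0396, and the lactate exporter gene SLC16A3 by 1.16 ± 0.0449 and 0.92 ± 0.0454. Between hairpins in hypoxia 7 of the 15 were lower in shRIPOR3, such as LDHA (-0.51 ± 0.0394) and EGLN1 (-0.46 ± 0.0475), and 5 higher, led by the monocarboxylate transporter SLC16A1 (1.11 ± 0.106). EGLN3, a further prolyl hydroxylase, had the lowest value (-1.89 ± 0.324), with 9, 3 and 12 counts in shRIPOR3 against 18, 24 and 26 in shControl. In normoxia 4 were lower and 2 higher, with SLC16A1 at 2.04 ± 0.142. The counts of 4 genes that fell or were lower were unstable. They became 2 in shControl without hypoxia shControl replicate 1, and 2 in shRIPOR3 without normoxia shRIPOR3 replicate 1 or 2 or hypoxia shControl replicate 2 or 3. Between hairpins in normoxia they became 2 without normoxia shRIPOR3 replicate 1 or 3. With library totals 2 fell in shControl, and in shRIPOR3 10 rose and 1 fell.

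Of 9 tested trafficking, adhesion and receptor partners described for NDRG1, 4 rose in hypoxia and 2 fell in shControl, and 3 rose and 2 fell in shRIPOR3. Those that rose in shControl included the growth factor receptor gene EGFR (1.57 ± 0.0373). Between hairpins EGFR was lower in shRIPOR3 in hypoxia (-0.60 ± 0.0357). RAB4A, the recycling GTPase bound by NDRG1, fell in hypoxia in shControl (-0.29 ± 0.0477) and in shRIPOR3 (-0.36 ± 0.0459). E-cadherin, CDH1, averaged 1.21 ± 0.137 CPM in hypoxia shRIPOR3 and no more in the other groups. In shRIPOR3 2 of the 9 were higher and 2 lower in normoxia, and 2 were higher and 4 lower in hypoxia. The 2 higher became 1 in normoxia without normoxia shRIPOR3 replicate 3 and 1 in hypoxia without hypoxia shControl replicate 1.

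Of 15 other metastasis suppressor genes tested, 3 rose and 8 fell in hypoxia in shControl (median -0.18), where 32.4% of all genes rose and 32.4% fell. In shRIPOR3 2 rose and 9 fell (median -0.23), where 25.2% of all genes rose and 30.4% fell. BRMS1, a transcriptional corepressor subunit, fell by 0.80 in shControl (-0.80 ± 0.0387), while the actin-severing protein gene GSN rose (0.82 ± 0.0806). The tetraspanin CD82 did not pass the test for hypoxia in shControl (-0.11 ± 0.0852, edgeR adjusted p = 0.257) but was lower in shRIPOR3, with fitted values below those of NDRG1, at -2.81 ± 0.132 in normoxia and -2.62 ± 0.102 in hypoxia. GSN was also lower in shRIPOR3 (-1.28 ± 0.11 in normoxia and -1.47 ± 0.0756 in hypoxia), and KISS1, which encodes the kisspeptins, was higher (0.89 ± 0.0919 and 0.76 ± 0.0792). Over the list 6 were higher and 3 lower in shRIPOR3 in normoxia, and 7 were higher and 5 lower in hypoxia.

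The genes with the pattern most like that of each member were found by the root mean square difference of log2 CPM, centred on each gene, over the 12 libraries and among 12657 other genes with a mean of at least 1 CPM. For NDRG1 they were RASSF4 (0.256), ALDOC (0.287), PLA2G4D (0.312), SPAG4 (0.397) and ANGPTL4 (0.416), beside a spread of NDRG1 about its own mean of 1.79. RASSF4 averaged 7.37 CPM in hypoxia shRIPOR3, 32.9 CPM in hypoxia shControl, 1.44 CPM in normoxia shRIPOR3 and 3.78 CPM in normoxia shControl. PLA2G4D averaged just 0.0502 CPM in normoxia shRIPOR3 and 0.208 CPM in normoxia shControl. At such levels the 0.1 CPM added before taking logs shrinks its changes, and its place with another addition was not tested. The same 5 genes were nearest by the means of the 4 groups, with the same addition. For NDRG3, whose own spread was 0.251, the nearest was SRRD (0.0314), followed by MTCH2 (0.0353), SMYD5 (0.0367), RPL35 (0.0418) and FBXO7 (0.0428). None of these 5 remained among the nearest 5 by group means. For NDRG4, with a spread of 0.371, they were APBB3 (0.130), LTBP4 (0.133), CLTCL1 (0.133), NUP210 (0.135) and CELSR2 (0.137), of which 1 remained by group means. NDRG2, with a mean under 1 CPM, was not matched in this way.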

How the data were processed

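The authors deposited raw counts per gene symbol, 1 column per library, with no normalization. Per the submitters' processing notes the tools were STAR 2.5.3a, fastp 0.23.4 and featureCounts and the build GRCh38, listed without roles. For the annotation and the strand setting, the sources used here give nothing. Counts of all 12 libraries were fitted in edgeR 4.0.16 (R 4.3.3) after filterByExpr, with TMM factors (0.9517 to 1.048), 1 coefficient per group and quasi-likelihood F-tests. P-values were adjusted by Benjamini and Hochberg over 15648 genes, with a threshold of 0.05. SE is the absolute log2 fold change divided by the square root of F. Ratios used counts plus 0.5. Likeness used log2 of CPM plus 0.1. The pipeline was run on counts simulated from the kind of model that edgeR fits, so that run does not bear on the calls made here. The members and gene lists, and the rule naming up to 4 list genes with the smallest p plus the extremes, were chosen with earlier results of these data known. Of 88 list entries 86 were in the table. Replicate numbers were not taken to pair libraries. Replicates differed by more than sampling noise (chi-square over degrees of freedom from 2.65 to 6.32). Sequences came from RefSeq (GRCh38.p14), lengths from GENCODE 29. Values of some list members are not reported here.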

Additional observations from a re-analysis of the deposited data

Results flagged for a closer look

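The response to hypoxia differed between the lines by the interaction test for 2 members. NDRG1 rose by 2.75 ± 0.0407 on the log2 scale in shRIPOR3 and by 3.56 ± 0.0402 in shControl, a difference of -0.81 (edgeR adjusted p = 2e-10). NDRG3 changed by -0.33 ± 0.0385 in shRIPOR3 and by -0.53 ± 0.0398 in shControl, a difference of 0.20 (edgeR adjusted p = 0.00906). All 3 libraries of each group showed these directions. Groups of 3 libraries were too small for a test of single outlying libraries.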

How the results depend on the processing

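Over the 6 comparisons in which each was called, NDRG1 kept its call under 131 of 131 combinations of comparison and alternative and NDRG3 under 127 of 131. Over the 4 comparisons in which each was called, NDRG4 kept it under 82 of 88 and NDRG2 under 57 of 84. The sums of NDRG2, between 37 and 72 counts per group, limit what can be said of it, and the filter of 1 CPM in 3 libraries left no value for it. Where a call was lost the cause was not tested.

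For hypoxia against normoxia in shControl, NDRG2 lost its call in DESeq2 (-0.60), with library totals (-0.47), without a count filter (-0.58), after thinning (-0.54), at an adjusted p under 0.01 (-0.58) and with the replicate number as a block (-0.57). For shRIPOR3 against shControl in normoxia, NDRG2 lost it in DESeq2 (-0.82), after thinning (-0.74) and at 0.01 (-0.80), and NDRG3 with only the groups compared (0.10) and at 0.01 (0.13). For the same contrast in hypoxia, NDRG2 lost it in DESeq2 (-0.57), without a filter (-0.56), with only the groups compared (-0.58), at 0.01 (-0.59) and with the replicate block (-0.59), and NDRG4 in DESeq2 (-0.29), after thinning (-0.37) and at 0.01 (-0.31). The block changed no other member's call and gave 7119 genes called between hairpins in normoxia, against 7150 without it, and under the block no count of genes called moved by over 1.5 times. No pairing by number was seen over all tested genes, where 0 of 18 correlations of same-numbered libraries across groups passed 0.1 (from -0.0194 to 0.0254). Such correlations could miss a pairing that touches few genes. For hypoxia shRIPOR3 against normoxia shControl, NDRG3 lost it with library totals (-0.0852). After thinning the NDRG2 interaction was -0.34, opposite in sign to 0.21, with neither called. At 0.01, 2185 genes had an interaction, against 3624.

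Leaving out 1 library at a time gave -0.69 to -0.42 for NDRG2 between oxygen levels in shControl, and -0.55 to -0.24 in shRIPOR3, where it was not called. Its interaction, not called, ran from 0.04 to 0.35. Thinning gave NDRG2 -0.88 between oxygen levels in shRIPOR3 (not called) and -1.08 between hairpins in hypoxia (called). Between hairpins in normoxia, leaving out 1 library at a time gave -0.93 to -0.62 for NDRG2 and 0.10 to 0.16 for NDRG3. Between hairpins in hypoxia, the same omissions gave -0.73 to -0.48 for NDRG2 and -0.40 to -0.22 for NDRG4. The hypoxic difference in the log2 ratio of NDRG2 to NDRG3 ran from -0.17 to 0.073. Library totals raised the share of called genes that were higher in hypoxia to 61.6% in shControl (50% with TMM) and 63.4% in shRIPOR3 (45.3%), and to 62.2% in hypoxia shRIPOR3 against normoxia shControl (48.9%).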

Other observations

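Genes beside the members did not move with them in several cases. SETD6, a protein methyltransferase gene that begins 1850 bases beyond the end of NDRG4 on the same strand, was higher in shRIPOR3 in hypoxia (0.65 ± 0.0871) and in normoxia (0.80 ± 0.116), where NDRG4 was lower. With hypoxia SETD6 rose in shControl (0.35 ± 0.113, edgeR adjusted p = 0.00919), as NDRG4 did. In shRIPOR3 the SETD6 change with hypoxia was not called (0.20 ± 0.0920, edgeR adjusted p = 0.0638). DSN1, a kinetochore gene 5712 bases from NDRG3, fell in hypoxia in both lines (-0.41 in each), as NDRG3 did. Between hairpins it had log2 values of -0.03 in normoxia and in hypoxia and was not called (edgeR adjusted p = 0.62 and 0.566). TGIF2, on the other side of NDRG3, was higher in shRIPOR3 in normoxia (0.28 ± 0.0530) and hypoxia (0.27 ± 0.0443), as NDRG3 was. With hypoxia TGIF2 rose in shControl (0.13 ± 0.0504) and shRIPOR3 (0.12 ± 0.0472), where NDRG3 fell. GINS3, on the other side of NDRG4, fell with hypoxia in shControl (-0.48 ± 0.0796) and shRIPOR3 (-0.19 ± 0.0765), where NDRG4 rose. PHF20L1 and the pseudogene ST13P6, the nearest tested genes around NDRG1, fell in hypoxia in shControl by 0.16 (-0.16 ± 0.0397) and 0.37 (-0.37 ± 0.152).

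NDRG2 lies in a crowded stretch. ARHGEF40, a guanine nucleotide exchange factor gene on the opposite strand whose gene body overlaps the far upstream start of NDRG2 with 0 shared exon bases, was lower in shRIPOR3 by 1.02 in hypoxia (-1.02 ± 0.0579) and by 1.31 in normoxia (-1.31 ± 0.068). ZNF219, the next tested gene beyond it, was lower as well (-0.43 ± 0.0767 in hypoxia and -0.41 ± 0.0933 in normoxia). METTL17, on the other side of NDRG2, was higher in shRIPOR3 than in shControl in hypoxia (0.29 ± 0.0479). Between hairpins in normoxia METTL17 was not called (0.10 ± 0.0537, edgeR adjusted p = 0.121). With hypoxia in shControl ARHGEF40 (-0.30 ± 0.0572) and METTL17 (-0.24 ± 0.0520) fell, as NDRG2 did. ZNF219 was not called there (-0.06 ± 0.0827, edgeR adjusted p = 0.567). In shRIPOR3 none of these neighbours was called with hypoxia.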
